A study of Mus musculus with 123 samples.

Results

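Single dorsal root ganglion (DRG) neurons of the mouse were compared between the side of a sciatic nerve transection (SNT) and the opposite, uncut side, 3 days after the operation. Cells were assigned by the side named in their label and by nothing else, and all cells that the authors kept after leaving out outliers were used, 41 SNT-side and 18 control-side neurons, which are 59 of the 106 kept single neurons of the series. All day-3 cells came from F1 mice of a CAST/Eij male and a C57BL/6 female, 2 months old, with the right sciatic nerve cut at the thigh. The control cells were taken from the ganglia of the left side of operated mice, so they are not from unoperated animals, and both sides were dissociated with enzymes before picking. The labels give the ganglion as L5, and the study's text gives L5 in 1 place and L3 to L5 in another. Single somata of small, medium and large diameter were picked by hand and amplified by Smart-seq2, which copies polyadenylated RNA over its full length without molecular identifiers. Values beside these are from 33 SNT-side and 14 control-side neurons of C57BL/6 mice at day 7, and from 3 libraries per side that are parts of 1 lysate of pooled day-3 neurons.

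The labels name no animal for any cell, so the cells of a side form 1 sample and no difference between the sides was tested. Each SD is over cells of 1 side. Expression is given in CPM, counts scaled to a total of 1e6 per cell, with no correction for gene length, and a ratio is log2 of the mean CPM + 1 of the SNT side over the mean CPM + 1 of the control side. This scale understates the difference of genes near 0 on a side. A level averaged over picked cells cannot tell a smaller share of a cell type among the picked cells apart from less RNA per cell of that type.

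A DRG neuron is a sensory neuron whose single axon divides into a branch to the periphery and a branch to the spinal cord. Cutting the peripheral branch is known to switch on a growth program in the soma, with transcription factors such as Atf3, Jun and Sox11 and growth-associated proteins such as Gap43, while many ion channels, receptors and transmitters that define sensory subtypes are known to decline. The subtypes are usually divided into non-peptidergic nociceptors (NP), peptidergic nociceptors (PEP), large myelinated neurons (LM) and low-threshold C fibres (C-LTMR), each with its own receptors.

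Total counts lay between 611647 and 1849130 on the SNT side (median 1323932) and between 277390 and 1368842 on the control side (median 862619), so SNT-side cells were deeper. Thinned to 250000 counts each, SNT-side cells held 10790 ± 365 genes with a count (SD, n = 41) and control-side cells 10741 ± 526 (SD, n = 18). Neuronal genes were high on both sides, among them Tubb3, with means of 6699.7 and 3826 CPM (SNT and control side), and Nefl, with 4102 and 4499 CPM. Markers of satellite glia and Schwann cells, which wrap DRG neurons, were present on both sides. The summed level of these 14 markers ran from 1107 to 11768 CPM over SNT-side cells (median 4434) and from 1246 to 15317 over control-side cells (median 3984), and 0 of the 13 measured were past a ratio of 2. The summed level of 16 immune cell markers ran from 0 to 4401 CPM on the SNT side (median 11) and from 0 to 104 CPM on the control side (median 1.77), and of the 16 only S100a8, S100a9 and Retnlg reached 10 CPM on a side. They were listed at 0 in every control-side cell, and 1 SNT-side cell held all 3 above 10 CPM, with 1710 CPM of S100a8 against 17 CPM in the next cell.

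Of 24134 genes in the table, 9736 averaged at least 10 CPM on the higher side. The mean was at least 2 times as high on the SNT side for 567 of these genes (5.82%) and at least 2 times as high on the control side for 591 (6.07%), with a median log2 ratio of -0.05 over all 9736. Past a log2 ratio of 3 there were 93 genes on the higher side and 16 on the lower side, and past 5 there were 16 and 3. A gene could enter through its higher side alone, as 289 of the higher and 207 of the lower genes did. Of the 8641 genes with at least 10 CPM on both sides 278 were higher and 384 lower, with 14 and 3 past a log2 ratio of 3. For list members measured on both sides, the background is these 278 and 384 of 8641 genes. The shares of 5.82% and 6.07% are the background only for all measured members of a list. The limit of 2 cuts through a continuous range, with 75 genes between log2 ratios of 1 and 1.1 and 72 between 0.9 and 1. Medians over cells gave a ratio of 2 in the same direction for 470 of the 567 higher genes and 457 of the 591 lower genes, and went the other way for 5 and 29. One cell held over 50% of the summed CPM of its side for 9 higher and 21 lower genes.

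**Figure D1:**
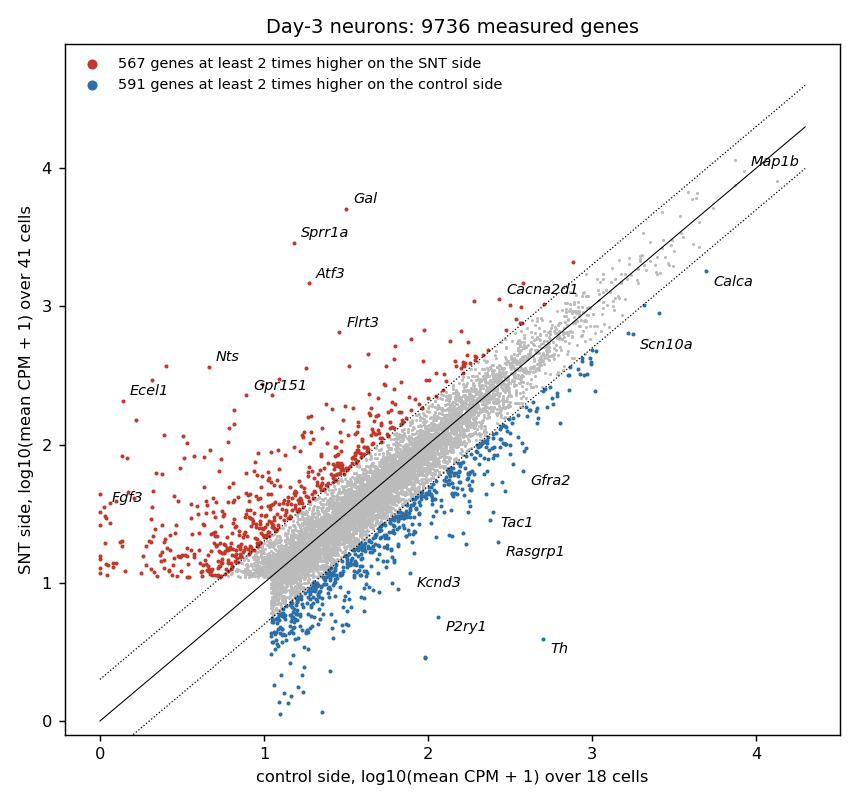
Mean expression of 9736 measured genes in day-3 neurons, with log10 of mean CPM + 1 over 18 control-side cells on the x axis and over 41 SNT-side cells on the y axis. The 567 genes at least 2 times higher on the SNT side are red, the 591 at least 2 times higher on the control side are blue, and dotted lines mark a ratio of 2. Past a log2 ratio of 5 there are 16 red and 3 blue points, with Sprr1a at 7.57 and Th at -7.0. Map1b, of high level on both sides, lies near the diagonal, whereas Gal, of high level on the SNT side, lies far from it.

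The 15 genes with the highest ratios among those above 10 CPM in at least 50% of SNT-side cells were Sprr1a, Gal, Ecel1, Slc6a4, Nts, Atf3, Pappa2, Lmo7, Fgf3, Cryba2, Il31ra, Gpr151, Inhbb, Sema6a and Sez6l. Promoter stretches are shown for those of them in which a script found the AP-1 element, the sequence bound by dimers of Fos and Jun family proteins, since Jun and Atf3 are themselves among the higher genes here. RefSeq promoter windows of GRCm38.p6, from 250 bases before to 50 bases after a gene's start, were found for 13 of the 15 genes. The letters searched were TGAGTCA and TGACTCA, which are the same element on both strands, and the cyclic AMP response element TGACGTCA. Neither element contains the other. Each stretch below is written 5′ to 3′ on the strand of the gene, upstream of its start, with the match in capitals.
Sprr1a, chr3:92485951-92486067, minus strand: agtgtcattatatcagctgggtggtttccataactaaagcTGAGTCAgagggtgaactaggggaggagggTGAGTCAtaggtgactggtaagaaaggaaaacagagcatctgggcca
Nts, chr10:102490579-102490665, minus strand: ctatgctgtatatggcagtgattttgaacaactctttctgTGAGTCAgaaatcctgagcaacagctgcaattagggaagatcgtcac
Cryba2, chr1:74893156-74893242, minus strand: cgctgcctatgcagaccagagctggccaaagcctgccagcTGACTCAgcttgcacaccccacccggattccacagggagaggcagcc

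Sprr1a held 2 matches, starting 146 and 116 bases before the gene start, Nts held 1 at 207 bases and Cryba2 held 1 at 59 bases. Among all genes with a window, 5.95% held the AP-1 letters, and 4.22% of the 7414 measured genes with a window did. The letters stood in 36 of 412 genes with a window that were 2 times higher on the SNT side (8.74%) and in 18 of 423 that were lower (4.26%). The CRE letters stood in 3.99% of the measured genes, 3.4% of the higher genes and 2.13% of the lower genes. These are matches of letters in a short window, not measured binding. The 8 named lower genes with a window held neither motif, and the 13 named higher genes with a window held no CRE letters. At shares of 4.22% and 3.99% of measured genes, 8 genes are too few to show a lack of either motif.

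Sprr1a, a small proline-rich protein known as a regeneration-associated gene, ran from 0 to 13019 CPM over SNT-side cells (median 1970) and from 0 to 63.9 CPM over control-side cells (median 2.46). The means were 2902 ± 3065 CPM (SD, n = 41) and 14.3 ± 22 CPM (SD, n = 18), a log2 ratio of 7.57. Above every control-side cell stood 30 of 41 SNT-side cells, and at least 22 did so for 2.56% of all measured genes. The pooled libraries read 1307, 1358 and 1540 CPM for the SNT side against 1.38, 9.53 and 7.1 CPM for the control side, so they did not overlap. Gal, the neuropeptide galanin, ran from 1.49 to 18957 CPM on the SNT side (median 1385) and from 0 to 164 CPM on the control side (median 5.83), with a log2 ratio of 7.3. Of 41 SNT-side cells 22 exceeded every control-side cell. The rest of the SNT-side cells overlapped with the control side.

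Atf3, a stress-induced transcription factor, separated SNT-side cells into those far above the control side and those within it. It ran from 0.650 to 4436 CPM on the SNT side (median 1696) and from 0 to 75.7 CPM on the control side (median 8.75). Of 41 SNT-side cells, 30 held between 951 and 4436 CPM, the other 11 held at most 23 CPM, and no cell lay between. The mean was 1476 ± 1105 CPM against 17.7 ± 22.7 CPM (SD, n = 41 and n = 18). The share of cells with more than 10 CPM of Atf3 was 85.4% on the injured side (exact 95% interval 70.8 to 94.4) and 38.9% on the other (17.3 to 64.3), so a level of 10 CPM does not part the sides as the highest control cell does. These intervals cover counting of cells only, and cells of 1 side share animals.

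Several genes of the 15 were close to absent from control-side cells. Ecel1, a membrane endopeptidase of injured neurons, averaged 206 ± 282 CPM on the SNT side and reached at most 3.2 CPM in a control-side cell. Slc6a4, the serotonin transporter, averaged 150 ± 296 CPM and reached at most 5.56 CPM in a control-side cell. Both were above 10 CPM in 0 of 18 control-side cells, which allows a share of up to 18.5% (exact 95% interval), against 56.1% and 51.2% of SNT-side cells. For Fgf3, a secreted growth factor, 1 count in all control-side cells stood against 1894 counts on the SNT side, a ratio of count shares of 563 with a counting interval of 101 to 2.22e+04. Cryba2, a crystallin, had 1 count against 1970, a ratio of 586 (105 to 2.31e+04), and Inhbb, the beta B subunit of activin and inhibin, had 1 count against 1526, a ratio of 454 (81.3 to 1.79e+04). The intervals of these count ratios treat each read as independent. Reads include PCR copies and come from cells that differ and share animals, so the intervals understate the uncertainty.

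Others had a wide spread on the SNT side. Nts, the neuropeptide neurotensin, ran from 0 to 2127 CPM (median 208) with at most 18.1 CPM in a control-side cell. Gpr151, an orphan receptor, ran from 0 to 563 CPM (median 251) with at most 24.4 CPM in a control-side cell. Il31ra, a subunit of the itch cytokine receptor, averaged 103 ± 193 CPM against 2.40 ± 3.85 CPM. Sema6a, a transmembrane semaphorin, averaged 274 ± 238 CPM against 8.72 ± 14 CPM, and 31 SNT-side cells exceeded every control-side cell, the most among the 15. Pappa2, a protease of insulin-like growth factor binding proteins, averaged 81.9 CPM, Lmo7 averaged 117 CPM and Sez6l averaged 177 CPM, each with at most 5.59 CPM on average on the control side.

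In the pooled libraries, every SNT-side library lay above every control-side library and the mean was at least 2 times as high for all 15 genes, with log2 ratios from 2.59 for Il31ra to 8.76 for Gal. At day 7 the mean was at least 2 times as high on the SNT side for all 15, with log2 ratios from 1.24 for Il31ra to 9.52 for Sprr1a. Those means rested on part of the cells, since the median SNT-side cell of day 7 was at 0 for 7 of the 15 and above the median control-side cell for 8. For Gal 1 cell held 68.9% of the day-7 SNT-side level and the SNT-side cell was higher in 44.8% of cell pairs. Over all genes measured at day 3, the same held for 8.20% in pools and, of 9038 genes measurable at day 7, for 3.84%. The pooled sides were read from the column names. The identifiers that stand under those names assign the 6 columns to the opposite sides, and by them every pooled difference given here changes sign, while the source labels of all 6 read intact. By the column names Atf3 averaged 1466 CPM in SNT-side pools and 13.4 CPM in control-side pools.

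**Figure D2:**
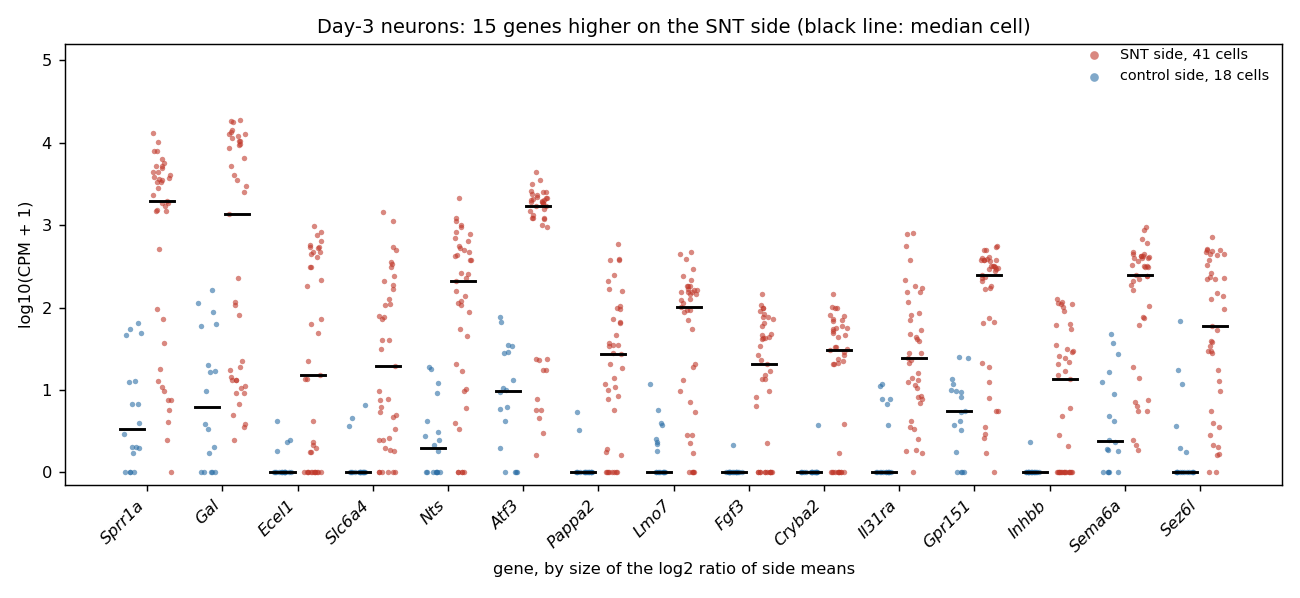
Levels of the 15 genes with the highest ratios in each day-3 neuron, as log10 of CPM + 1, with 18 control-side cells in blue and 41 SNT-side cells in red and a black line at the median cell. Between 20 and 31 SNT-side cells per gene exceed every control-side cell, and the remaining SNT-side cells overlap with the control side, with the clearest gap for Atf3.

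The 15 genes were largely high in the same cells. They were chosen for high ratios in these cells, and 20 to 31 SNT-side cells per gene exceeded every control-side cell. Whether the genes shared more cells than these counts alone would give was not tested. Counted per cell, 30 of 41 SNT-side neurons held at least 10 of the 15 genes above every control-side cell, 7 held 1 to 4, 4 held 0 and no cell held 5 to 9. The median cell held 13 and 8 cells held all 15. Of the 30 cells with Atf3 above every control-side cell, 29 also had Sprr1a there, 29 had Nts, 30 had Gpr151, 29 had Fgf3 and 22 had Gal. Of the other 11 SNT-side cells, 1 had Sprr1a above every control-side cell, 1 had Nts, 3 had Il31ra, and none had Gal, Gpr151, Fgf3, Cryba2 or Sez6l. The same count at day 7, against the same day-3 control cells, gave 11 of 33 SNT-side cells with at least 10, 1 with 5 to 9, 10 with 1 to 4 and 11 with 0, while the 14 control-side cells held at most 2. Day-7 cells came from another strain and from longer reads, and the difference between the days was not tested.

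**Figure D3:**
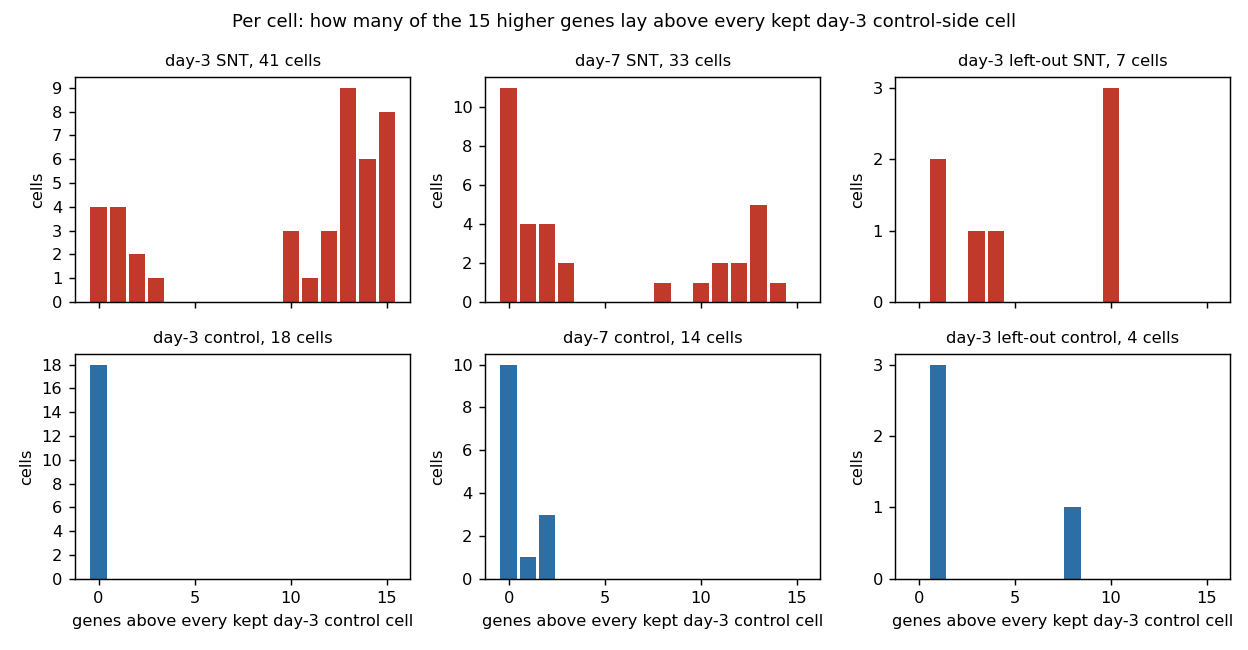
Number of cells (y axis) by how many of the 15 higher genes lay above every kept day-3 control-side cell (x axis), for 6 groups of neurons. Day-3 SNT-side cells fall into 11 cells at 0 to 4 and 30 cells at 10 to 15, day-7 SNT-side cells show both ends with fewer at the upper end, and day-7 control-side cells lie at 0 to 2. The day-3 control-side cells are at 0 because the count is taken against their own highest cell.

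Other higher genes passed 10 CPM in fewer SNT-side cells than the 15 did. This limit alone parts them from the 15. Above every control-side cell stood 24 SNT-side cells for 4933402N22Rik and 22 for Wfdc3, as many as for Inhbb and Gal. The genes of this part were Anxa1, Npy, Wfdc3, Tgfbi and 4933402N22Rik, the 5 highest ratios among genes above 10 CPM in 10% to 50% of SNT-side cells. Npy, neuropeptide Y, ran from 0 to 3006 CPM on the SNT side with a median of only 1.58, and from 0 to 9.5 CPM on the control side. The share above 10 CPM was 43.9% on the SNT side (28.5 to 60.3) and 0% on the control side (0 to 18.5). Anxa1, the phospholipid-binding annexin A1, averaged 371 ± 1016 CPM against 1.54 ± 4.25 CPM, with a median of 4.98 on the SNT side. All of the 18 Npy, 14 Anxa1, 22 Wfdc3 and 13 Tgfbi cells above every control-side cell were among the 30 with Atf3 there. Anxa1 and Tgfbi, an extracellular matrix protein, shared 11 cells, which were 78.6% of the Anxa1 cells and 84.6% of the Tgfbi cells, whereas Anxa1 and Ucn, the peptide urocortin, shared 5, which were 35.7% and 29.4%. Ucn and Wfdc3 shared 15, which were 88.2% of the Ucn cells. All 14 Anxa1 cells were also among the 24 Ecel1 cells and the 24 Inhbb cells, and 12 were among the 22 Gal cells. Whether any pair shared more cells than its counts alone would give was not tested.

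Of the 28 measured injury transcription factors 13 were at least 2 times higher on the SNT side and 1 was lower, with a median log2 ratio of 0.73, against 5.82% and 6.07% of all genes. Over the 23 members with at least 10 CPM on both sides 8 were higher and 1 lower, with a median of 0.36. Of all 8641 genes with that level on both sides 278 were higher and 384 lower. Besides Atf3 the largest were Sox11, with 369 ± 312 CPM against 32.1 ± 17.5 CPM, Tgif1 with a log2 ratio of 3.01, Bach1 with 2.57, Csrnp1 with 2.39 and Nfil3 with 2.14. Smad1, a mediator of bone morphogenetic protein signals, averaged 94.6 ± 58.8 CPM against 26.4 ± 18.1 CPM. Bach1, a repressor that responds to heme, exceeded every control-side cell in 30 SNT-side cells. The member that was lower was Runx1, the factor that specifies nociceptor subtypes, with 36.4 CPM against 105 CPM. Stat3 and Klf7, also linked to axon growth, had log2 ratios of 0.29 and 0.13. Immediate early genes, known to respond to dissociation, had a median of 0.47 over 9 measured, with Fos at 0.04, Egr1 at -0.46 and Arc at 2.39. The median was 0.04 over the 7 measured on both sides, and over the 9 it was -0.78 in pools and -0.75 at day 7.

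Of 53 growth and cytoskeleton genes 25 were higher and 0 lower (median 0.91), against 5.82% and 6.07% of all genes, and 18 of the 45 measured on both sides were higher (median 0.74). Tubb6, a beta tubulin, ran from 0 to 714 CPM on the SNT side (median 310) and from 0 to 63.4 CPM on the control side (median 7.3). Stmn4, a stathmin that binds tubulin, averaged 139 ± 118 CPM against 5.54 ± 9.04 CPM and exceeded every control-side cell in 33 SNT-side cells, which only Ndel1 matched among the 567 higher genes. Flrt3, a leucine-rich transmembrane protein, ran from 11.7 to 1422 CPM (median 781) against 1.06 to 71.7 CPM (median 19.4). Itga7, a laminin receptor subunit, averaged 679 ± 513 CPM against 93.1 ± 40.7 CPM, and Myo10, a motor of filopodia, 123 ± 114 CPM against 16.6 ± 16.7 CPM. Members that are abundant in every neuron differed less, with log2 ratios of 0.18 for Map1b, 0.62 for Tuba1a and 0.85 for Stmn2. Reads of tubulin paralogs with similar sequences may be split by the counting, so the values of single tubulins are uncertain.

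Neuropeptides and secreted factors went both ways, 9 of 16 measured higher and 5 lower, against 5.82% and 6.07% of all genes. Of the 12 with at least 10 CPM on both sides 5 were higher and 5 lower (median 0.11). Beside Gal, Npy, Nts and Fgf3 the higher ones of the 16 were Ucn, Csf1, Adcyap1, Cartpt and Penk. Csf1, the macrophage and microglia growth factor, averaged 227 ± 202 CPM against 10.1 ± 12 CPM, and 30 SNT-side cells exceeded every control-side cell, all of them among the 30 with Atf3 there. Adcyap1, the peptide PACAP, ran from 3.3 to 1883 CPM (median 217) against 0 to 895 CPM (median 3.01), where 1 control-side cell held 81.8% of the summed control level. The higher mean of Penk came mainly from 1 SNT-side cell, which held 76.1% of its side, and in the pooled libraries Penk was lower with a log2 ratio of -4.93. The lower members were Tac1, Nmb, Calcb, Calca and Scg2. Calcb, beta CGRP, had a median of 6.32 CPM on the SNT side against 509 CPM on the control side, and Nmb, neuromedin B, 6.47 against 215 CPM. Tac1, the precursor of substance P, had medians of 0 and 28.6 CPM, but at day 7 its mean was higher on the SNT side with a log2 ratio of 4.27. That mean rested on part of the cells, since the day-7 median of Tac1 was 0 CPM on both sides.

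On the lower side, the 15 genes with the lowest ratios among those above 10 CPM in at least 50% of control-side cells were P2ry1, Rasgrp1, Gm7271, Tac1, Chrna7, Bhlha9, Spry4, Kcnd3, Gm765, Nptx1, Rnf112, Gfra2, Adrbk2, Chrna6 and Ccdc141. Their log2 ratios lay between -4.35 and -2.38, and the sides overlapped more than for the higher genes. For 12 of the 15 the lowest control-side cell was at 0, so that no SNT-side cell could be under every control-side cell, and for Bhlha9 and Rnf112 24 and 22 SNT-side cells did, where at least 22 did so for 1.58% of all measured genes. The share of SNT-side and control-side cell pairs in which the SNT-side cell was higher lay between 12.1% for Bhlha9 and 36.2% for Nptx1, against a median of 48.5% over all genes measured. In pools, 13 of the 15 did not overlap in the same direction and 12 were also 2 times lower, against 10.1% of all measured genes. At day 7, 14 had the same sign by the mean and 7 were 2 times lower, against 2.91% of genes. Tac1 was the exception in sign, with a median of 0 CPM on both sides.

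Rasgrp1, an activator of Ras, ran from 0 to 247 CPM on the SNT side (median 2.60) and from 0 to 1416 CPM on the control side (median 30.2). Its pooled libraries read 7.76, 3.3 and 7.47 CPM for the SNT side against 260, 217 and 206 CPM for the control side. Gfra2, the receptor for neurturin, averaged 64.0 ± 153 CPM against 381 ± 445 CPM, and its pooled libraries lay between 17 and 20.4 CPM against 447 to 497 CPM. Kcnd3, an A-type potassium channel, passed 10 CPM in 26.8% of neurons of the injured side (14.2 to 42.9) and in 83.3% of control-side neurons (58.6 to 96.4). Gm765 had medians of 0 and 136 CPM. Chrna6, a nicotinic receptor subunit, had medians of 0 and 76.3 CPM. For Chrna7, another nicotinic subunit, and Bhlha9 the pooled libraries overlapped. In the GENCODE annotation of GRCm38 some of the genes described here share exon bases with another gene. On the other strand these are Kcnd3, P2ry1, Gm765, Cd34, Slc51a, Aars, Arg2, Azin1, Bcl2, Cacnb4, Cdkn1a, Csrnp1, Elovl6, Gadd45a, Gfra1, Itga7, Kcnmb4, Klf7, Nefl, Penk, Prdm12, Rgs12, Runx1, Scn9a, Shox2 and Stat3, and counts without strand cannot tell the partners apart. On the same strand they are Aars, Il31ra, Nmb, Pappa2, Spp1 and Tuba1a.

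**Figure D4:**
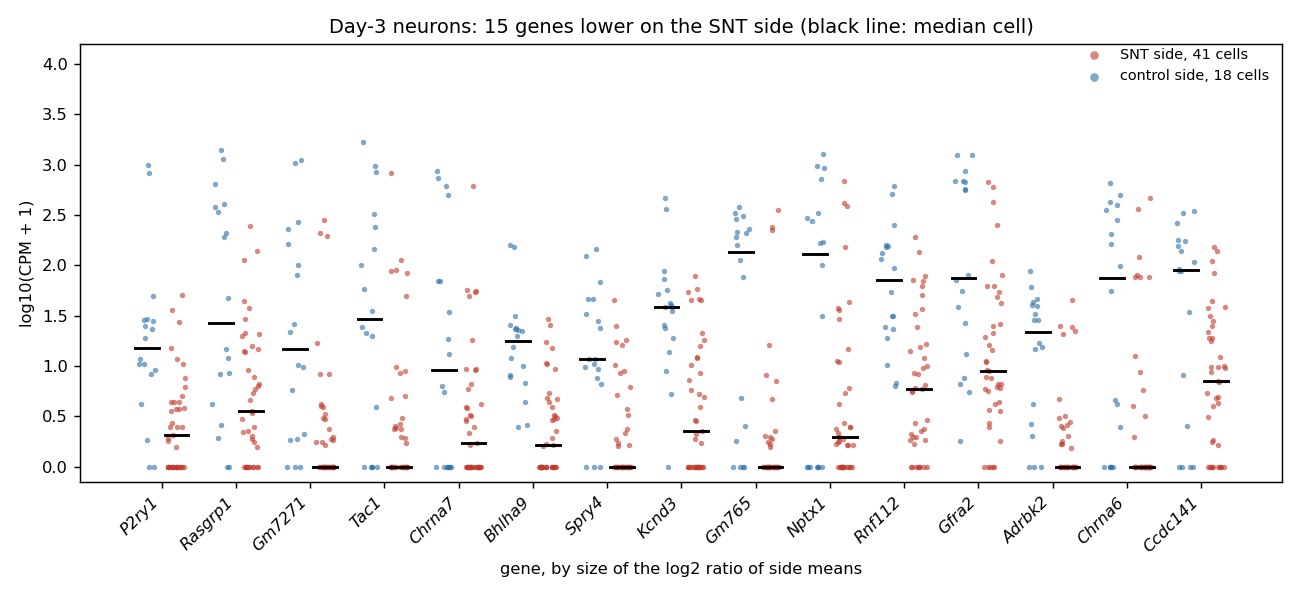
Levels of the 15 genes with the lowest ratios in each day-3 neuron, as log10 of CPM + 1, with 18 control-side cells in blue and 41 SNT-side cells in red and a black line at the median cell. The median SNT-side cell is lower for each gene, but cells of both sides reach 0 for most of them and the ranges overlap.

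Part of the lowest ratios rested on few control-side cells. Th, tyrosine hydroxylase and the classic marker of C-LTMR neurons, had the lowest ratio of the genes above 10 CPM in 10% to 50% of control-side cells (-7.0), followed by Comp, Cd34, Chrnb3 and Slc51a. Th was above 100 CPM in 2 of 18 control-side cells and in 0 of 41 SNT-side cells, and the same 2 cells were the only ones above 100 CPM for Cd34 and P2ry1. All 7 measured C-LTMR markers were at least 2 times lower on the SNT side by the mean, against 6.07% of all genes. Cd34 and P2ry1 of this list were already known to be low here, so the count is not independent of these data. Of the 7 measured markers 4 had at least 10 CPM on both sides and 3 entered through the control side alone. The summed level of the list was 127 to 10473 CPM over control-side cells (median 596) and 17.6 to 873 CPM over SNT-side cells (median 208). By the median over cells Th had a log2 ratio of 0 and Zfp521 one of 1.51 in the other direction. In pooled libraries Th read 52.0, 85.3 and 65.9 CPM on the SNT side against 276, 429 and 376 CPM on the control side. How many cells of each subtype were picked on each side was not tested for its part in these ratios.

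Sodium and potassium channel genes were lower as groups in day-3 cells. Of 15 measured sodium channel genes 7 were at least 2 times lower and 0 higher (median log2 ratio -0.93), and of 43 potassium channel genes 25 were lower and 1 higher (median -1.13), against 6.07% and 5.82% of all genes. Measured on both sides were all 15 of the former and 33 of the latter, of which 20 were lower and 0 higher. Scn10a and Scn11a, the sodium channels of nociceptors, had SNT-side medians of 74.7 and 9.23 CPM against 1858 and 251 CPM, and for each 14 SNT-side cells were under every control-side cell. Scn9a was detected in every cell of both sides, from 125 to 743 CPM against 148 to 1157 CPM, and the SNT-side cell was the higher in 9.49% of cell pairs. For Scn1a the mean and the median went opposite ways, with a log2 ratio of means of -1.46 and of medians of 2.05. Among potassium channels, Kcna2 averaged 51.2 ± 103 CPM against 244 ± 230 CPM, and Kcnt1, a sodium-activated channel, 101 ± 164 against 294 ± 249 CPM. The auxiliary subunits Kcnip1, Kcnip2 and Kcnmb1 were lower, with log2 ratios of -2.33, -1.88 and -2.33. Kcnmb4 was the member that was higher (1.57), while its pooled libraries overlapped.

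The median log2 ratio of the potassium channels was -0.98 in pools and -0.14 at day 7, and that of the sodium channels was -0.30 in pools and -0.0042 at day 7. Over all genes the medians were -0.12 and -0.07. Scn8a lay above the control side in the pooled libraries (log2 ratio 0.33) and at -0.93 in cells. Calcium channels were mixed, 2 of 12 measured higher and 3 lower, against 5.82% and 6.07% of all genes. Of the 11 with at least 10 CPM on both sides 2 were higher and 2 lower. Cacna2d1, the subunit bound by gabapentin, averaged 1131 ± 835 CPM against 270 ± 125 CPM, and 26 SNT-side cells exceeded every control-side cell, all among the 30 with Atf3 there. Cacnb4, a beta subunit, was lower with 102 ± 112 CPM against 288 ± 154 CPM.

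**Figure D5:**
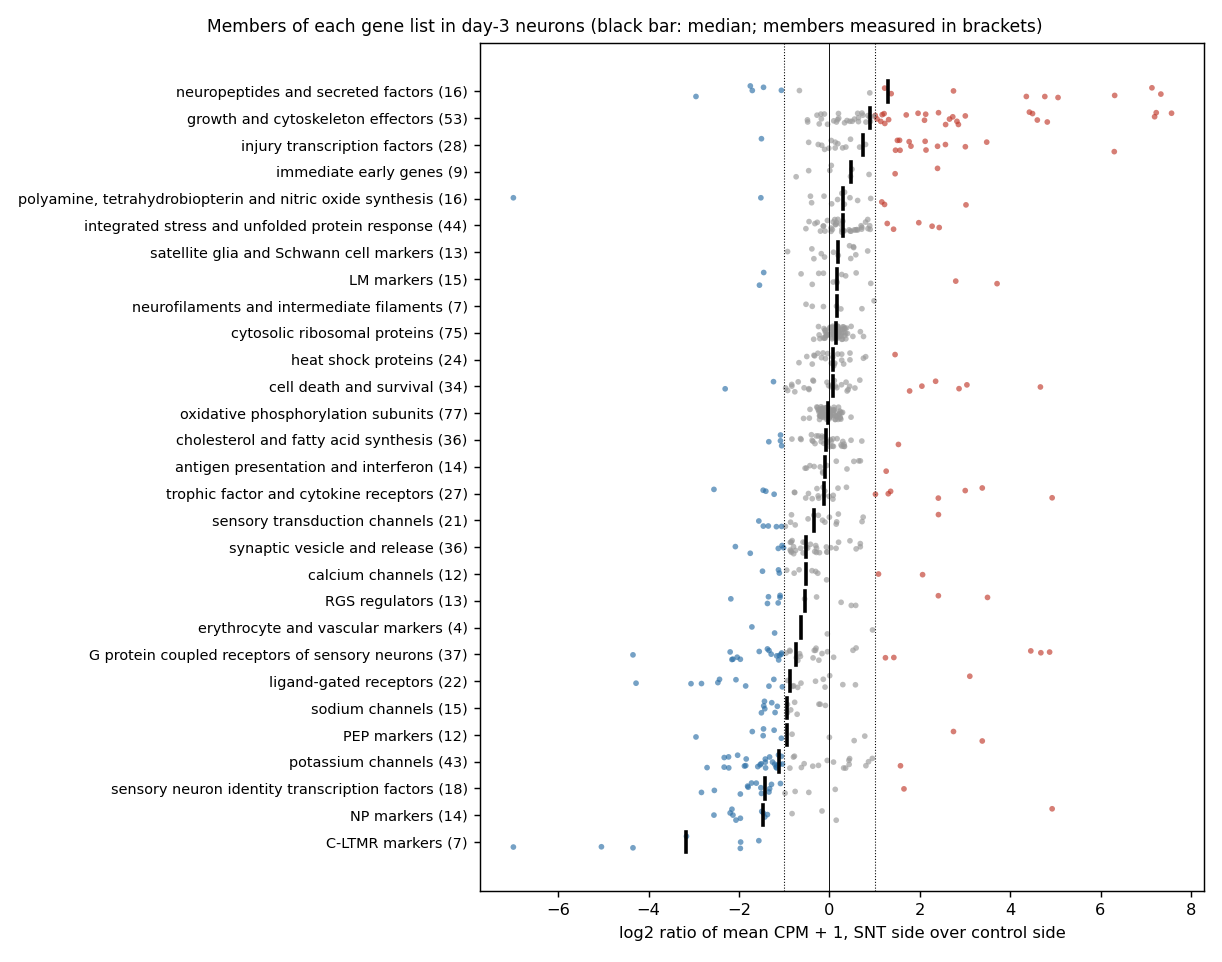
Log2 ratio of mean CPM + 1, SNT side over control side (x axis), of the measured members of 29 gene lists (rows, number measured in brackets), with a black bar at the median, dotted lines at a ratio of 2 and members past it in red or blue. The immune list, with 3 measured members that came from 1 cell, is left out. Medians run from -3.16 for C-LTMR markers to 1.29 for neuropeptides and secreted factors, which over members with at least 10 CPM on both sides are -1.97 and 0.11, and ribosomal and oxidative phosphorylation genes lie close to 0.

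Of 37 measured G protein coupled receptors 15 were lower and 5 higher, and of 22 ligand-gated receptors 10 were lower and 1 higher, against 6.07% and 5.82% of all genes. With at least 10 CPM on both sides 9 of 24 and 8 of 18 were lower and 1 of each was higher. Mrgprd, the receptor of non-peptidergic nociceptors, averaged 142 ± 497 CPM against 638 ± 942 CPM, Lpar3 37.9 CPM against 177 CPM, and Htr4, a serotonin receptor, 14.4 ± 26.9 against 59.5 ± 53.0 CPM. The higher receptors were Gpr151, Cckbr, Npy1r, Npy2r and Htr1d. Cckbr, the cholecystokinin B receptor, averaged 40.2 ± 52.4 CPM and reached at most 7.2 CPM in a control-side cell, and Npy1r, a receptor of neuropeptide Y, averaged 45.5 ± 150 CPM with 40.4% of its sum in 1 cell. Grik1, a kainate receptor subunit, averaged 93.2 ± 240 CPM against 394 ± 433 CPM. Gabrg1, a GABA-A receptor subunit, was the ligand-gated receptor that was higher, with 158 ± 354 against 17.5 ± 52.9 CPM. Of 21 transduction channels 5 were lower and 1 higher, among them Piezo2, the touch channel, with 195 ± 176 CPM against 578 ± 420 CPM and 14 SNT-side cells below every control-side cell. Trpv1, the capsaicin receptor, averaged 73.9 CPM and 74.0 CPM, whereas in pools its log2 ratio was -3.16.

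Receptors for trophic factors and cytokines went both ways, 7 of 27 higher and 4 lower, against 5.82% and 6.07% of all genes. Of the 23 with at least 10 CPM on both sides 4 were higher and 3 lower. Gfra3, the receptor for artemin, averaged 449 ± 709 CPM against 42.1 ± 129 CPM, Gfra1 442 ± 425 against 172 ± 256 CPM, and Gfra2, described above, was lower. Il13ra1 averaged 87.9 ± 97.2 CPM against 10.1 ± 15.5 CPM, and Acvr1, a type I receptor for bone morphogenetic proteins and activins, 56.3 ± 54.0 against 9.78 ± 6.85 CPM. Igf1r, the receptor of insulin-like growth factor, averaged 23.4 ± 27.7 CPM against 63.9 ± 33.6 CPM, with 26 SNT-side cells below every control-side cell. Lifr and Il6st, the receptors of leukemia inhibitory factor and related cytokines, had log2 ratios of -0.28 and -0.38.

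Of the 18 measured transcription factors of sensory neuron identity 13 were at least 2 times lower and 1 was higher (median -1.42), against 6.07% and 5.82% of all genes. Measured on both sides were 11, of which 7 were lower, and the median of the list was -1.41 in pools and -0.17 at day 7. Isl2, a LIM homeodomain factor, ran from 2.24 to 915 CPM on the SNT side (median 63.9) and from 87.6 to 946 CPM on the control side (median 467), and 25 SNT-side cells were under every control-side cell. Pou4f1, a general factor of sensory neurons, ran from 36 to 218 CPM (median 93.8) against 91.1 to 705 CPM (median 256), and was detected in every cell of both sides. Prdm12, a factor of nociceptors, had medians of 11 and 148 CPM. Shox2 was the one that was higher, with 1 control-side cell holding 87.3% of the control level and a pooled log2 ratio of -1.34. Markers of the subtypes followed no single direction. Of 14 measured NP markers 10 were lower and 1, Il31ra, was higher (median -1.48), against 6.07% and 5.82% of all genes. Of 12 PEP markers 6 were lower and 2, Adcyap1 and Gfra3, were higher (median -0.95 by means and 0.03 by medians over cells), and of 15 LM markers 2 were lower and 2 higher (median 0.16). The higher LM markers were Pvalb and Spp1, where 1 SNT-side cell held 36.3% and 80.6% of the SNT-side level.

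Of 34 genes of cell death and survival 6 were higher and 2 lower (median 0.08), against 5.82% and 6.07% of all genes, and of the 29 measured on both sides 3 were higher and 0 lower. Pmaip1, the BH3-only protein Noxa, averaged 60.1 ± 97.3 CPM and reached at most 11.7 CPM in a control-side cell. Cdkn1a, the cell cycle inhibitor p21, ran from 0 to 1278 CPM (median 685) against 0 to 381 CPM (median 15.1), and Gadd45a, a growth arrest gene, from 2.64 to 595 CPM (median 210) against 5.70 to 46.6 CPM (median 21.7). Gadd45g and Casp6 were also higher. The lower members were Dapk2, with 6.88 ± 14 against 38 ± 42.2 CPM, and Bcl2, with 8.81 ± 18.3 against 22.2 ± 38.5 CPM.

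Of 44 measured genes of the integrated stress and unfolded protein response 5 were higher and 0 lower (median 0.30), against 5.82% and 6.07% of all genes. Of the 41 with at least 10 CPM on both sides 3 were higher and 0 lower. The median of the list was -0.03 in pools and -0.18 at day 7. The 5 higher genes of the 44 were Chac1, Sesn2, Trib3, Mthfd2 and Aars, all known targets of the transcription factor Atf4. Aars, the alanyl-tRNA synthetase, was in every cell, from 119 to 760 CPM on the SNT side against 82.4 to 278 CPM, with 29 SNT-side cells above every control-side cell. Atf4 itself had a log2 ratio of 0.80, and the endoplasmic reticulum chaperone Hspa5 one of 0.12. At day 7 the ratios of the 5 genes lay between -0.91 for Trib3 and 0.18 for Mthfd2. Heat shock proteins had 1 of 24 higher, Hspb1, with 2085 ± 1472 CPM against 761 ± 742 CPM. Of 16 measured genes of polyamine, tetrahydrobiopterin and nitric oxide synthesis 3 were higher and 2 lower (median 0.30), against the same shares of all genes. With at least 10 CPM on both sides 2 of 13 were higher and 1 lower, and the pooled median of the list was -0.01. The higher ones were Arg2, an arginase, Odc1, the first enzyme of polyamine synthesis, and Azin1, with log2 ratios of 3.02, 1.22 and 1.16. Azin1 inhibits the protein that targets Odc1 for degradation. The lowest was Th (-7.0).

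Regulators of G protein signalling were 6 lower and 2 higher of 13 measured, against 6.07% and 5.82% of all genes. With at least 10 CPM on both sides 6 of 10 were lower and 0 higher. Rgs12 averaged 23.6 ± 26.6 CPM against 1.17 ± 1.99 CPM and exceeded every control-side cell in 32 SNT-side cells, whereas Rgs10 averaged 71.3 ± 112 against 327 ± 274 CPM. Among genes of the synaptic vesicle cycle 5 of 36 were lower and 0 higher (median -0.53), against the same shares of all genes. The lowest was Rph3a, rabphilin, with 89.6 ± 120 CPM against 383 ± 191 CPM. Of 36 genes of cholesterol and fatty acid synthesis 4 were lower and 1 higher (median -0.08), again against 6.07% and 5.82%. Elovl6 was lower at -1.34 and Hsd17b7 higher at 1.53. None of the 7 measured neurofilament and intermediate filament genes passed a ratio of 2, though Vim had a log2 ratio of 0.99. Of 14 measured genes of antigen presentation and interferon signalling H2-T23 was higher (1.26). The 75 ribosomal protein genes and 77 oxidative phosphorylation genes had 0 members past a ratio of 2 in either direction and medians of 0.14 and -0.03. In the list of erythrocyte and vascular markers Dcn, a matrix proteoglycan of fibroblasts, was lower by the mean (-1.72) with 42% of the control level in 1 cell.

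Across the whole set, pooled libraries did not overlap and were at least 2 times different in the same direction for 390 of the 567 higher genes (68.8%) and 343 of the 591 lower genes (58.0%), against 8.20% and 10.1% of all measured genes, and in the other direction for 6 and 14. At day 7 a ratio of 2 in the same direction was found for 188 higher genes (33.2%) and 120 lower genes (20.3%), against 3.84% and 2.91%, and in the other direction for 8 and 10. Across 9317 genes, which are not independent replicates, the log2 ratios of cells and pools had a Pearson r of 0.715 and a Spearman rho of 0.575, and across 9038 genes those of day 3 and day 7 had 0.511 and 0.270. Cells and pools shared strain, day and read length, and day-7 cells shared none of these with them.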

How the data were processed

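Day-3 libraries were single-end reads of 50 bp. The labels list CASAVA 1.8.2, Bowtie2, RSEM and the build mm9, and per the study's methods reads were aligned with Bowtie2 and counted by RSEM on RefSeq exons without ribosomal RNA. The tables that the authors deposited are named TPM but hold expected counts per gene, since cells sum to different totals with 60.7% to 84.3% of a day-3 cell's nonzero values being whole. Without gene lengths they were scaled to CPM by column sum, so levels of different genes are not compared. The authors had left out 11 day-3 outliers by principal component analysis. Copies made by PCR count as reads, and intervals cover counting error only. Spike-in reads were not analysed. Each cell was picked singly, and doublets were not searched for. The 59 cells shared no identical libraries.

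A gene counted as measured with 10 CPM or more on the side with the higher mean, and ratios had a pseudocount of 1 CPM. Named genes are the 15 highest and 15 lowest ratios above 10 CPM in at least 50% of cells of the higher side, 5 and 5 above it in 10% to 50%, members of each of 30 gene lists with the largest ratios, and genes that the study names. A few genes that this rule names are not reported here. Ndel1, the joint counts of cells, the limit of 22 cells beyond the other side and the counts over genes with 10 CPM on both sides were chosen after values were seen. The gene lists and tests were chosen with earlier results of these data known, and Cd34 and P2ry1 of the C-LTMR list were among genes already known to be low here, so the list is not independent of them. Shares have exact Clopper-Pearson 95% intervals. The ratio was checked on simulated data. Analyses used Python 3.11.15, numpy 2.4.6, pandas 2.3.3, scipy 1.17.1 and matplotlib 3.10.9. Alternatives were other averages, pseudocounts, scalings and filters, thinning, all 70 day-3 cells, and each pooled library left out. Gene symbols of the table without outliers were used for the 27 that differ between tables. Neither an enrichment test nor a p-value was computed.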

Additional observations from a re-analysis of the deposited data

Results flagged for a closer look

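Cells outside the comparison also carried a signal above the control side. Of the 7 day-3 SNT-side neurons that the authors left out as outliers, 4 held Atf3 above every kept control-side cell, from a range of 12 to 255 CPM (median 82.2), while the 4 left-out control-side neurons held 17.2 to 71.4 CPM and 0 of them did. All of these levels lie below the 951 CPM that the lowest of the 30 high kept cells held. Of the left-out control-side cells 1 held 8 of the 15 higher genes above every kept control-side cell, and the other 3 held 1 to 4. The left-out SNT-side cells held at least 10 in 3 cells and 1 to 4 in 4.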

How the results depend on the processing

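No paired analysis was possible because the labels name no animal for a cell, the numbers in cell names do not pair sides, and none of these values comes from a test. Of 360 values of named genes under 9 alternatives 332 stayed within the spread between cells, 28 moved and 0 reversed. That spread is wide, so the count says little of stability: Nptx1 went from -2.68 to -6.11 and Slc6a4 from 6.51 to 4.29 with medians over cells and stayed within it. With a pseudocount of 10 CPM 343 genes were higher and 307 lower, with a filter of 50 CPM 247 and 290, and with a filter of 1 CPM or none 1029 and 885, and with all 70 cells 532 and 430. Without the highest cell of the higher side for each gene 360 were lower, so that 469 of 829 genes past the limit (56.6%) were higher, against 49.0% with all cells. At a limit of 1 CPM the share of cells with Atf3 was 97.6% on the SNT side and 72.2% on the control side. A filter of 10 CPM on the mean of both sides gave 469 and 505 and one of 10 CPM on each side 278 and 384, both chosen after the data were seen. With medians over cells the list median went from -0.95 to 0.0336 for PEP and from -0.63 to 0.14 for erythrocyte and vascular markers. The other list medians that changed sign lay between -0.12 and 0.20 before and became 0.0044 for oxidative phosphorylation with size factors, and with all 70 cells 0.0152 for trophic factor receptors, 0.0761 for antigen presentation (0.0134 without the highest cell) and -0.079 for glia. The named genes that did not overlap and were 2 times different in pools numbered 27 of 30, and 27 to 29 with 1 library left out. The fewest counts in a kept cell, 277390, limit what can be seen of genes near 10 CPM.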
